A study of Mus musculus with 12 samples.

Results

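The 10 genes described here encode Toll-like receptors, Fc receptors and the molecules that work beside them on myeloid cells, and all 10 were found by symbol among the 15651 genes of the expression table. They are *Tlr2*, *Tlr4*, *Cd14*, *Ly96*, *Myd88*, *Fcgr3*, *Fcgr2b*, *Fcer1g*, *Nlrp3* and *Tyrobp*. The RNA came from c-Kit+ splenocytes of 6 moribund C57BL6/J mice with acute myeloid leukemia (AML), with 3 mice of each genotype. *D/F* mice were Dnmt3a fl/fl, Flt3 ITD/ITD and Mx1-Cre, *T/F* mice were Tet2 fl/fl, Flt3 ITD/ITD and Mx1-Cre, and all of them therefore carried the internal tandem duplication of *Flt3*, a growth factor receptor, on both alleles. Mx1-Cre was left uninduced and its leakiness deleted 1 or both floxed alleles, so the deletion can differ between mice and cells. Cells were cultured with SCF, IL-6 and IL-3, and those of each mouse were split between the solvent DMSO and CCS1477 (inobrodib), which binds the bromodomains of the acetyltransferases p300 and CBP, for 6 hours. *D/F* cells received 4 µM and *T/F* cells 2 µM, so genotype and dose cannot be told apart in any difference of response. The 12 libraries form 4 groups of 3, numbered by mouse, and replicates with the same number within a genotype come from 1 mouse.

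Toll-like receptors recognize microbial molecules. TLR4 binds lipopolysaccharide with the help of its partner MD-2 (encoded by *Ly96*) and of CD14, which delivers the ligand, and TLR2 binds bacterial lipoproteins. Both pass the signal on through the adaptor MyD88 to NF-κB. One of its outcomes is the priming of NLRP3, the sensor of an inflammasome that activates caspase-1. Fc receptors bind antibodies. The activating receptor FcγRIII (*Fcgr3*) reaches the surface and signals through the Fc receptor γ chain (*Fcer1g*), which carries an immunoreceptor tyrosine-based activation motif (ITAM). FcγRIIB (*Fcgr2b*) instead holds an inhibitory motif (ITIM) and restrains the activating receptors. DAP12 (*Tyrobp*) is another ITAM chain and serves many myeloid receptors, TREM1 and TREM2 among them. These genes are typical of monocytes, macrophages and neutrophils, and several are already expressed in myeloid progenitors.

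Promoters from RefSeq (GRCm38.p6) were used for 6 of the 10 genes, and *Tlr4*, *Cd14*, *Ly96* and *Tyrobp* were not searched. Printed below are the 250 bases before the annotated start, on the gene's strand, for *Fcgr3* and *Nlrp3*, which were among the members with the largest falls with CCS1477. They lie at chr1:171059404-171059653 (minus strand) and chr11:59541319-59541568 (plus strand). The windows of *Fcgr2b* (chr1:170976072-170976321) and *Tlr2* (chr3:83841609-83841858, both minus strand) were searched but are not printed, since GENCODE places untranslated exons in them. Capitals mark letters that match a searched motif.
Fcgr3: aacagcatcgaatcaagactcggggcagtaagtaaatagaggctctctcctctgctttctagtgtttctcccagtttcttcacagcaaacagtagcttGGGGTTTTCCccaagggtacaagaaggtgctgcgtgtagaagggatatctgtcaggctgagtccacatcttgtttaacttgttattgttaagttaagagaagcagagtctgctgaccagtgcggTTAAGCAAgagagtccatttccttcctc
Nlrp3: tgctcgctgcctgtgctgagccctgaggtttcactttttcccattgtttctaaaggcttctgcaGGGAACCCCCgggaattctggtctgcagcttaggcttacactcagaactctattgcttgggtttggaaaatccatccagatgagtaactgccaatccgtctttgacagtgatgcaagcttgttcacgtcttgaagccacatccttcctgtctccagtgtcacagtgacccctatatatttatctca
The promoters were searched on both strands for PU.1 (GAGGAAGT), C/EBP (TTGCNNAA), AP-1 (TGANTCA), NF-κB (by its usual consensus), interferon regulatory factors (by the usual letters) and the cAMP response element (TGACGTCA). *Fcgr3* held an NF-κB match (GGGGTTTTCC) from -152 to -143 of the start and a C/EBP match, TTAAGCAA as printed, from -28 to -21 on the other strand. *Nlrp3* held an NF-κB match, GGGAACCCCC as printed, from -186 to -177 on the other strand. *Tlr2* held 2 overlapping NF-κB matches, GGGGAATTCC from -173 to -164 and GGGAATTCCC from -172 to -163. *Fcgr2b* held no match to these letters in its window, and neither did *Fcer1g*, while *Myd88* held GAAAGCGAAA, an interferon regulatory factor match, from -40 to -31. Among all 32851 RefSeq promoters of this length, 3.9% held the NF-κB consensus, 9.56% the C/EBP letters and 2.98% those of interferon regulatory factors. The shares were 2.44% for PU.1, 6.75% for AP-1 and 1.55% for the cAMP response element, none of which matched in the 6 genes. A match is a description of the letters, not a site of binding. *Nlrp3* has a further RefSeq start with no match. The start of *Fcgr3* used here lies 5532 bases inside the outermost GENCODE start of the gene, that of *Fcgr2b* 476 bases and that of *Tlr2* 159 bases. That of *Myd88* lies 1393 bases inside, so the window with its match is within the annotated gene.

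Expression is given as TPM, the share of transcripts in a library scaled to a fixed total and corrected for transcript length, so that levels can be compared between genes. Log2 fold changes were taken on log2(TPM + 1), a scale that makes the changes of weakly expressed genes look smaller than they are. They were tested by limma with Benjamini-Hochberg adjustment over all genes tested, and a gene passed where its adjusted p was under 0.05, whatever the fold. TPM keeps no read number. Depth is therefore unknown, and the error is the spread between 3 mice. Libraries summed to 914204 to 931697 TPM, and the lowest sum was that of *D/F* replicate 2 with CCS1477, a library whose values are often the lowest below. Progenitor and blast markers were all detected, with a summed level of 4377 to 10659 TPM in DMSO-treated *D/F* and 4700 to 6916 TPM in DMSO-treated *T/F* cells. *Ms4a1* and *Cd79a* of B cells and *Cd3e*, *Cd3g* and *Trac* of T cells were not listed in the table. Its genes all reach 2.0 TPM in a library, so an unlisted gene may still be expressed. The 4 of 7 B cell markers that were listed summed to 27.1 to 54.2 TPM in DMSO-treated *D/F* and 51.2 to 60.9 TPM in DMSO-treated *T/F* cells. The 4 of 8 T and NK cell markers summed to 114 to 167 TPM and 73.4 to 107 TPM. Markers listed for mature neutrophils summed to 2749 to 9514 TPM and 2382 to 7239 TPM in the DMSO cells of *D/F* and *T/F*, and those of monocytes and macrophages to 692 to 1530 TPM and 878 to 1098 TPM. The neutrophil sums lay largely with a few genes. With DMSO, *S100a8* averaged 3023 and 2829 TPM and *Ngp* 1230 and 704 TPM in *D/F* and *T/F*. *Ly6g* averaged only 2.29 and 21.4 TPM and *Cxcr2* 46.9 and 42.2 TPM. The sums therefore do not give the share of mature neutrophils. In *D/F*, replicate 2 had the lowest progenitor, neutrophil and monocyte sums with DMSO (4377, 2749 and 692 TPM). It also had the lowest with CCS1477 (1018, 1672 and 216 TPM). Its part in the *D/F* results through cell composition was not tested.

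With DMSO, the signaling chains stood highest and the coreceptor *Cd14* lowest. In *D/F* cells, *Fcer1g* (238 ± 32.5 TPM, SD, n = 3) and *Tyrobp* (188 ± 4.78 TPM) led, followed by *Fcgr3* (118 ± 43.1 TPM) and *Fcgr2b* (115 ± 25.2 TPM), whose ranges overlapped. *Myd88* (52.3 ± 20.0 TPM) and *Tlr4* (28.5 ± 13.4 TPM) came next, then *Tlr2* (14.3 ± 3.58 TPM), *Nlrp3* (11.97 ± 4.78 TPM) and *Ly96* (8.41 ± 3.58 TPM). From *Myd88* to *Ly96*, each gene overlapped the next in this order. *Cd14* was at 2.52 ± 1.41 TPM, below every other member in each mouse. In *T/F* cells *Tyrobp* (314 ± 40.4 TPM, SD, n = 3) and *Fcer1g* (299 ± 38.5 TPM) overlapped at the top, and *Fcgr2b* (102 ± 6.85 TPM), *Fcgr3* (100.4 ± 24.0 TPM) and *Myd88* (84.9 ± 8.35 TPM) came below them, each overlapping the next in this order. *Tlr2* (29.9 ± 7.11 TPM), *Tlr4* (27.4 ± 5.84 TPM) and *Nlrp3* (23.3 ± 5.38 TPM) formed the next set, and *Ly96* (8.04 ± 1.03 TPM) and *Cd14* (3.04 ± 0.747 TPM) stood apart below. With CCS1477, *Myd88* stood above both Fcγ receptors in each genotype, with no overlap between *Myd88* and *Fcgr2b*.

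**Figure D1:**
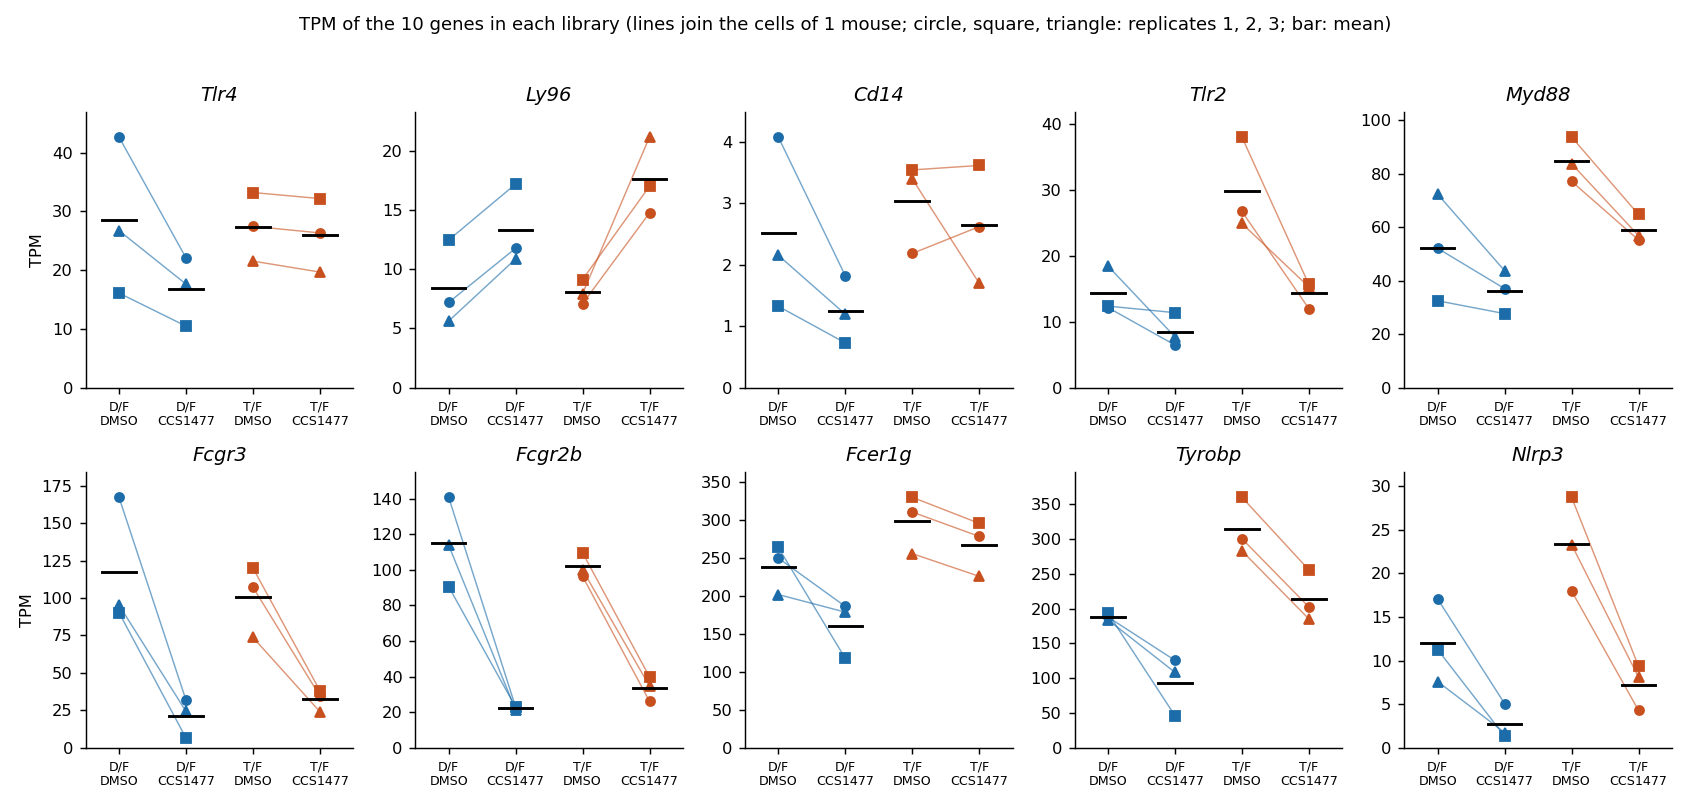
TPM (y axis, linear, from 0) of each of the 10 genes in the 12 libraries, by genotype and treatment (x axis). Points are libraries, thin lines join the cells of 1 mouse and black bars are means of 3; *Fcgr3*, *Fcgr2b* and *Nlrp3* fall steeply in all 6 mice, *Ly96* is higher with CCS1477 in all 6, and *Tlr4* and *Fcer1g* are nearly level in *T/F* cells.

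CCS1477 lowered the Fcγ receptors and *Nlrp3* most, in both genotypes, and raised *Ly96* in *T/F* cells. Of the 10 genes, 3 passed as lower in *D/F* AML (*Fcgr3*, *Fcgr2b* and *Nlrp3*) and none, a count of 0, as higher, against 6.51% lower and 5.14% higher of the 15501 genes tested by limma. At an unadjusted p under 0.05 in *D/F*, 6 were lower and 0 higher, where 30.4% of all genes reached this in either direction. In *T/F* AML 6 passed as lower (*Tlr2*, *Myd88*, *Fcgr3*, *Fcgr2b*, *Nlrp3* and *Tyrobp*) and 1 as higher (*Ly96*), against 17.6% lower and 25.8% higher of 15256 genes. Pairing the cells of each mouse (the mouse as a block in limma) changed these counts to 6 lower and 1 higher in *D/F*, and to 7 lower and 1 higher in *T/F*. It also raised the shares of all genes, to 18.0% lower and 21.4% higher in *D/F* and to 22.9% lower and 31.2% higher in *T/F*. With both genotypes in 1 fit and genotype as a covariate, 6 were lower and 1 higher (the members named for *T/F*), against 19.6% lower and 25.8% higher of 15583 genes. The block added *Tlr4* there, for 7 lower, against 25.9% lower and 34.5% higher of all genes. The median log2 fold change of the 10 genes was -0.69 with *D/F* cells and -0.54 with *T/F* cells, while that over all genes tested was 0.06 and 0.07. The 2 treatment groups did not overlap for 6 of the 10 genes in *D/F*, against 36.6% of all genes, and for 7 in *T/F*, against 56.1%. In bulk RNA, fewer cells of a type and less RNA per cell cannot be told apart. The *D/F* count rested on few mice: it was 4 lower and 1 higher without replicate 2, and 0 without replicate 1 or without replicate 3, fits in which no gene at all passed. In *T/F* 3 were lower without replicate 3 (*Myd88*, *Nlrp3* and *Tyrobp* lost), 4 without replicate 1 (*Tlr2* and *Tyrobp* lost) and 4 in a shared fit of the 4 groups.

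**Figure D2:**
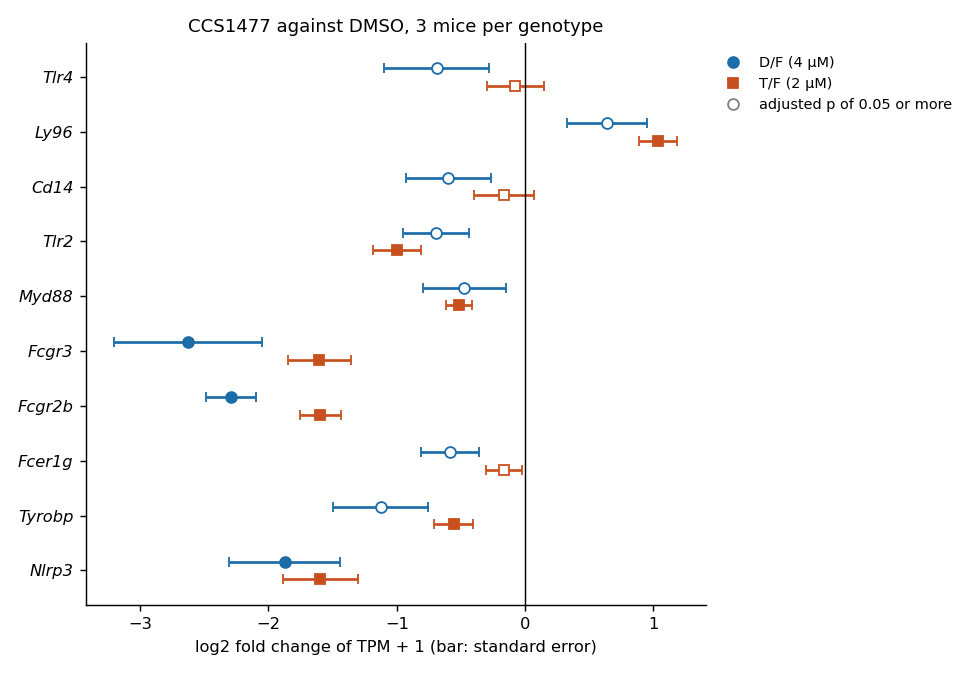
Log2 fold change of TPM + 1 with CCS1477 against DMSO (x axis) for each gene (y axis), with bars of 1 standard error, in *D/F* (circles, 4 µM) and *T/F* (squares, 2 µM), 3 mice each. Filled symbols passed limma at an adjusted p under 0.05; the Fcγ receptors and *Nlrp3* lie farthest to the left, and *Ly96* alone lies to the right of 0.

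Among the receptors of the lipopolysaccharide complex, *Tlr4* and *Ly96* had log2 fold changes of opposite sign. *Tlr4* (ENSMUSG00000039005, GRCm38 chromosome 4 from 66827584 to 66930284, plus strand), the signaling receptor, was at 42.7, 16.1 and 26.7 TPM with DMSO in *D/F* replicates 1 to 3 and at 22.1, 10.5 and 17.6 TPM with CCS1477. Every mouse was lower with CCS1477, but the mice differed widely and the groups overlapped. On the log2 scale the change was -0.69 ± 0.41 (SE, limma adjusted p = 0.307), and it passed once the cells of each mouse were paired (limma adjusted p = 0.0162). In *T/F* cells *Tlr4* was at 27.5, 33.2 and 21.5 TPM with DMSO and at 26.3, 32.2 and 19.7 TPM with CCS1477. These are nearly the same values in each mouse, 94.7 ± 2.99% (SD, n = 3) of the DMSO level, against 60.9 ± 7.92% in *D/F*. The log2 fold change in *T/F* was -0.08 (95% confidence interval -0.63 to 0.48, limma adjusted p = 0.808). The difference between the genotypes' responses, 0.61 on the log2 scale, had an unadjusted p of 0.00229 in limma with the mouse as a block and an adjusted p of 0.180 there (0.9999 without the block).

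*Ly96* (ENSMUSG00000025779, chromosome 1 from 16688051 to 16709611, plus strand), which encodes the ligand-binding partner MD-2, was the member that rose. In *T/F* cells it went from 7.07, 9.12 and 7.93 TPM with DMSO to 14.7, 17.0 and 21.1 TPM with CCS1477. All 3 treated samples lay above all DMSO samples, with a log2 fold change of 1.03 ± 0.15 (SE, limma adjusted p = 0.00344). In *D/F* cells it was at 7.18, 12.4 and 5.61 TPM with DMSO and at 11.8, 17.2 and 10.9 TPM with CCS1477. Here too every mouse was higher with CCS1477, but the DMSO sample of replicate 2 lay among the treated samples. The log2 fold change in *D/F* was 0.64 ± 0.31 (SE, limma adjusted p = 0.222), with an adjusted p of 0.0196 when the mice were paired. Relative to *Tlr4* in the same library, *Ly96* was at a ratio of 0.384 ± 0.338 with DMSO and 0.930 ± 0.618 with CCS1477 in *D/F* (SD, n = 3). In *T/F* the ratio was 0.300 ± 0.0594 with DMSO and 0.721 ± 0.307 with CCS1477. The ratio was higher with CCS1477 in all 6 mice, and only the *T/F* groups did not overlap.

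*Cd14* (ENSMUSG00000051439), the ligand-delivering coreceptor and a marker of monocytes, was barely above the filter of 1 TPM in many samples. In *D/F* it was at 4.08, 1.32 and 2.15 TPM with DMSO and at 1.82, 0.726 and 1.19 TPM with CCS1477, lower in each mouse with overlapping groups. This gave a log2 fold change of -0.60 ± 0.33 (SE, limma adjusted p = 0.275, 0.0246 with the mouse as a block). In *T/F* it was at 2.18, 3.54 and 3.40 TPM with DMSO and at 2.62, 3.61 and 1.70 TPM with CCS1477. There 2 mice were higher and 1 lower with CCS1477, and the log2 fold change of -0.17 (limma adjusted p = 0.604) became 0.10 without replicate 3.

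*Tlr2* (ENSMUSG00000027995, chromosome 3 from 83836272 to 83841767, minus strand), the receptor for lipoproteins whose promoter window held overlapping NF-κB letters, fell in *T/F* cells. It was at 26.7, 38.0 and 24.9 TPM with DMSO and at 11.97, 15.6 and 15.3 TPM with CCS1477. The treated samples all lay below the DMSO samples, and the log2 fold change was -0.999 ± 0.19 (SE, limma adjusted p = 0.00786). In *D/F* cells it was at 12.1, 12.4 and 18.4 TPM with DMSO and at 6.45, 11.4 and 7.69 TPM with CCS1477. The groups did not overlap here either, although replicate 2 kept 91.9% of its DMSO level. The log2 fold change in *D/F* was -0.70 ± 0.26 (SE, limma adjusted p = 0.129, 0.0748 with the mouse as a block, 0.0493 without replicate 2).

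*Myd88* (ENSMUSG00000032508, chromosome 9 from 119335934 to 119341411, minus strand), the adaptor of most Toll-like receptors, fell moderately in *T/F* cells. In *T/F* it was at 77.2, 93.8 and 83.8 TPM with DMSO and at 55.2, 64.8 and 56.9 TPM with CCS1477. The groups did not overlap and each mouse kept 67.9% to 71.6% of its DMSO level. The log2 fold change was -0.52 ± 0.10 (SE, limma adjusted p = 0.00985). In *D/F* it was at 52.1, 32.5 and 72.4 TPM with DMSO and at 37.0, 27.7 and 43.7 TPM with CCS1477. The groups overlapped, and the log2 fold change of -0.47 ± 0.32 (SE, limma adjusted p = 0.374) passed only with the mouse as a block (adjusted p = 0.0482). *Myd88* overlaps *Acaa1a* on the opposite strand, and whether the quantification used strand is not given in the sources used here, so reads of the overlap are uncertain.

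The Fcγ receptors showed the largest falls of the 10 genes. *Fcgr3* (ENSMUSG00000059498, chromosome 1 from 171051174 to 171064935, minus strand), the activating receptor, was at 167, 90.3 and 95.3 TPM with DMSO in *D/F* and at 31.9, 6.54 and 24.3 TPM with CCS1477. All treated samples lay below all DMSO samples, and replicate 2 was lowest. On the log2 scale the change was -2.63 ± 0.58 (SE, limma adjusted p = 0.0366), and without replicate 2 it was -2.14 (limma adjusted p = 0.0235). It did not pass with a pseudocount of 0.1 (limma adjusted p = 0.0512), nor without replicate 1 (0.1696) or replicate 3 (0.252). In *T/F* it went from 107, 120 and 73.7 TPM to 34.6, 38.2 and 24.1 TPM. The mice agreed closely, each keeping 31.8% to 32.7% of its DMSO level, and the log2 fold change was -1.60 ± 0.24 (SE, limma adjusted p = 0.0039).

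*Fcgr2b* (ENSMUSG00000026656, chromosome 1 from 170958617 to 170976547, minus strand), the inhibitory receptor, fell alongside its activating counterpart. In *D/F* it went from 141, 90.6 and 114 TPM to 22.9, 22.9 and 21.2 TPM, so that mice that had differed with DMSO ended at nearly 1 level. This gave a log2 fold change of -2.29 ± 0.19 (SE, limma adjusted p = 0.0043), which did not pass without replicate 1 (0.108) or replicate 3 (0.177). In *T/F* it went from 96.4, 110 and 100.004 TPM to 26.1, 39.8 and 34.7 TPM. Treated and DMSO samples were apart in both genotypes, and the log2 fold change in *T/F* was -1.60 ± 0.16 (SE, limma adjusted p = 0.00113). The smaller fall in *T/F*, a difference of 0.70 on the log2 scale (95% confidence interval 0.14 to 1.26), had a limma adjusted p of 0.9999 (0.0198 unadjusted). It was the 1 member with an unadjusted p under 0.05 in that test, in which 0 of 15583 genes passed and 4.23% were under 0.05 unadjusted.

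*Fcgr3* and *Fcgr2b* are neighbors on chromosome 1 and share coding sequence, so that reads can be split between them. Of the 31-base words of the *Fcgr3* transcripts, 13.4% (233 of 1733) also occur in *Fcgr2b*, and these make up 4.15% of the *Fcgr2b* words. The longest coding stretch that both share is 129 bases long and spans the end of exon 3 and the start of exon 4 in each gene.
Fcgr3 and Fcgr2b: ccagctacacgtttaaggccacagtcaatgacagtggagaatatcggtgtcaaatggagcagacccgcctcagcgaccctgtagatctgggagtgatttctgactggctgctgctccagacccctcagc
In *Fcgr3* its exon 3 part lies at chr1:171057691-171057792 and its exon 4 part at chr1:171054167-171054193, and in *Fcgr2b* these lie at chr1:170967980-170968081 and chr1:170966674-170966700 (GRCm38, minus strand). The ratio of *Fcgr3* to *Fcgr2b* TPM within a library was 1.01 ± 0.176 with DMSO and 0.943 ± 0.583 with CCS1477 in *D/F* (SD, n = 3), and 0.982 ± 0.212 and 0.993 ± 0.317 in *T/F*. The ratio therefore had no common direction, and the lowest value, 0.286, was that of *D/F* replicate 2 with CCS1477.

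The signaling chains had smaller log2 fold changes than the Fcγ receptors. *Fcer1g* (ENSMUSG00000058715, chromosome 1 from 171229572 to 171234365, minus strand) was at 250, 264 and 202 TPM with DMSO in *D/F* and at 186, 118 and 179 TPM with CCS1477. The groups did not overlap, but the level left ranged from 44.6% of DMSO in replicate 2 to 88.5% in replicate 3, and the log2 fold change of -0.59 ± 0.23 (SE) did not pass (limma adjusted p = 0.145). In *T/F* *Fcer1g* was at 310, 330 and 256 TPM with DMSO and at 278, 295 and 226 TPM with CCS1477. Each mouse kept 88.3% to 89.7%, so that all were a little lower within overlapping groups, with a log2 fold change of -0.16 (limma adjusted p = 0.393, 0.0473 with the mouse as a block). The ratio of *Fcgr3* to *Fcer1g* went from 0.495 ± 0.165 to 0.121 ± 0.0595 in *D/F* and from 0.333 ± 0.0395 to 0.120 ± 0.0118 in *T/F* (SD, n = 3). It was lower in all 6 mice, without overlap between treatments in either genotype.

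*Tyrobp* (ENSMUSG00000030579, chromosome 7 from 30413760 to 30417585, plus strand), which encodes DAP12, was at 188, 193 and 184 TPM with DMSO in *D/F* and at 126, 46.1 and 108 TPM with CCS1477. The DMSO samples lay close together and above all treated samples, among which replicate 2 was far the lowest. The log2 fold change was -1.13 ± 0.37 (SE, limma adjusted p = 0.0999), and without replicate 2 it was -0.67 with a limma adjusted p of 0.0330. In *T/F* it went from 300.4, 360 and 283 TPM to 202, 256 and 185 TPM. The groups did not overlap, and the log2 fold change was -0.56 ± 0.15 (SE, limma adjusted p = 0.0297). *Tyrobp* kept less of its DMSO level than *Fcer1g* in each of the 6 mice, and their ratio went from 0.799 ± 0.0979 to 0.558 ± 0.148 in *D/F* and from 1.06 ± 0.0760 to 0.804 ± 0.0706 in *T/F* (SD, n = 3).

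**Figure D3:**
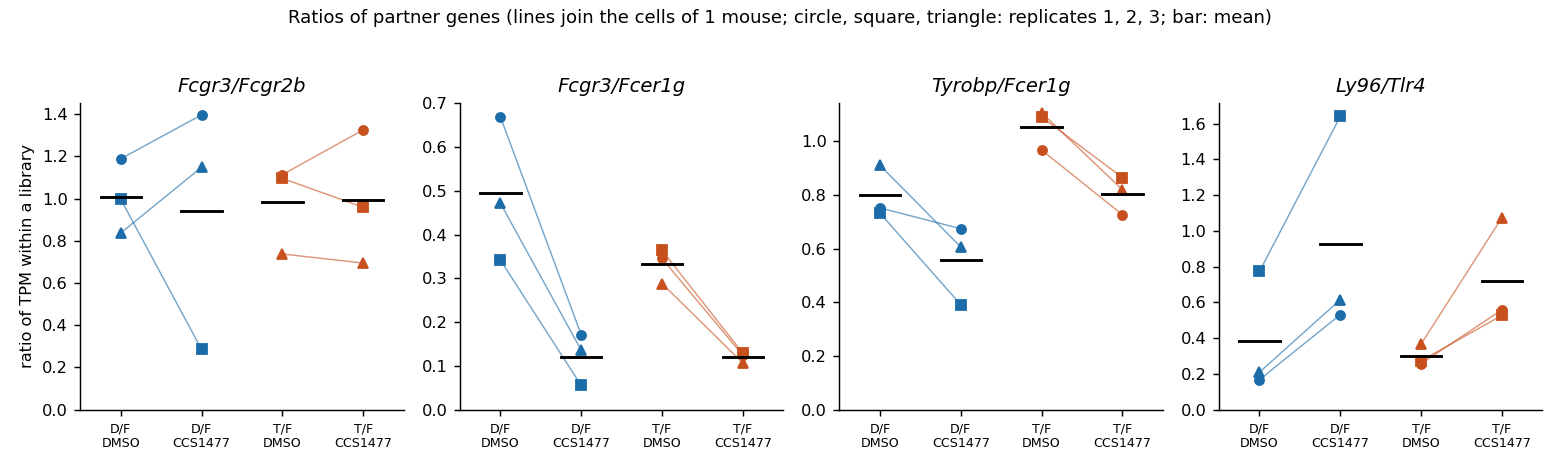
Ratios of the TPM of partner genes within a library (y axis, from 0) by genotype and treatment (x axis), with thin lines joining the cells of 1 mouse and black bars for the mean of 3. *Fcgr3* relative to *Fcgr2b* has no common direction, *Fcgr3* and *Tyrobp* are lower relative to *Fcer1g* with CCS1477 in all 6 mice, and *Ly96* is higher relative to *Tlr4* in all 6.

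*Nlrp3* (ENSMUSG00000032691, chromosome 11 from 59541568 to 59566956, plus strand), the inflammasome sensor, was at 17.1, 11.3 and 7.59 TPM with DMSO in *D/F* and at 5.06, 1.32 and 1.75 TPM with CCS1477. The treated samples all lay below the DMSO samples, with 21.5 ± 9.08% (SD, n = 3) of the level left. On the log2 scale the change was -1.87 ± 0.43 (SE, limma adjusted p = 0.0422), and without replicate 2 it was -1.61 and did not pass (limma adjusted p = 0.102). Nor did it pass with a pseudocount of 0.1 (limma adjusted p = 0.0571), without replicate 1 (0.119) or without replicate 3 (0.257). In *T/F* it went from 18.0, 28.7 and 23.3 TPM to 4.29, 9.35 and 8.09 TPM, again without overlap. This gave a log2 fold change of -1.59 ± 0.29 (SE, limma adjusted p = 0.00766) with 30.4 ± 5.76% (SD, n = 3) left.

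Correlations across the 12 libraries were taken on log2(TPM + 1). *Ly96* was negatively correlated with each of the 8 other members of at least 5 TPM, with Pearson's r from -0.752 for *Fcgr3* to -0.244 for *Fcer1g*. The genes most alike to each member among those of at least 5 TPM are given by Pearson's r over 12 samples as a description, since the samples share treatment and genotype. *Fcgr2b* was most like *Lair1* (r = 0.992), *Tbc1d2b* and *Slc25a12*, and *Fcgr3* was most like *Palm* (r = 0.986) and *Rps6ka1* (r = 0.979). *Lair1* encodes an inhibitory collagen receptor. *Fcer1g* and *Tyrobp* were like each other (r = 0.959). *Fcer1g* also had *Ugt1a5* and *Cotl1* among its 3 most alike genes, and *Tyrobp* had *Pld4* (r = 0.978), *Reep5* and *Nfam1*, itself a receptor with an ITAM. *Nlrp3* was most like *Aoah*, which encodes a lipopolysaccharide-degrading enzyme, *F13a1*, a coagulation factor chain of monocytes (r = 0.96 for each), and *9130208D14Rik*. *Tlr4* was most like *Vsir* (r = 0.959), *Plin3* and *Tnfrsf1a*, *Myd88* like *Ms4a6d* (r = 0.964), *Irf2bpl* and *Espl1*, *Tlr2* like *Trps1* (r = 0.934), ENSMUSG00000089672 and *Vps50*, and *Ly96* like *Ptger1* (r = 0.976), *Irf2* and *Slc35d2*.

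Genes around the members were followed in 7 lists. The ITAM-coupled receptors, many of which use DAP12 or the Fc receptor γ chain, were lower in most cases in *T/F*. Of 17 tested, 6 passed as lower in *D/F* cells and 15 in *T/F* cells (15 in both with the mouse as a block, where 18.0% and 22.9% of all genes were lower), and 0 as higher, with median log2 fold changes of -2.06 and -1.80. *Clec7a*, the β-glucan receptor Dectin-1, went from 14.5 ± 4.59 to 1.15 ± 0.509 TPM in *D/F* (SD, n = 3, log2 fold change -2.83, limma adjusted p = 0.00607) and from 23.2 ± 4.39 to 3.95 ± 0.474 TPM in *T/F*. *Trem1*, an amplifier of Toll-like receptor responses that pairs with DAP12, went from 12.6 ± 4.56 to 1.79 ± 1.35 TPM in *D/F* (SD, n = 3, log2 fold change -2.35, limma adjusted p = 0.0216) and from 14.4 ± 3.32 to 2.28 ± 0.514 TPM in *T/F*. The list also holds the inhibitory receptors *Pirb* and *Pilra*. *Pirb* passed as lower in both genotypes (log2 fold changes of -2.07 and -1.21), and *Pilra* in *T/F* (-2.34), with -1.88 in *D/F* that passed only with the mouse as a block. *Hcst*, a sister chain of DAP12, had log2 fold changes of 0.02 and 0.15 and passed in neither.

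Among the other Toll-like receptors and their cofactors, those that passed were lower. Of 17 tested, 4 passed as lower in *D/F* cells and 9 in *T/F* cells, and 0 as higher, with median log2 fold changes of -0.89 and -0.65. Pairing the cells of each mouse gave 10 lower in *D/F* cells and 13 in *T/F* cells, in fits that called more of all genes, as given above. *Cd180*, a Toll-like receptor homolog, fell from 26.1 ± 26.9 to 0.750 ± 0.230 TPM in *D/F* (SD, n = 3, log2 fold change -3.51, limma adjusted p = 0.023) and from 27.9 ± 6.62 to 7.11 ± 2.19 TPM in *T/F* (log2 fold change -1.84). Among the 6 other Fc receptors tested, 1 passed as lower in *D/F* cells and 4 in *T/F* cells, and 0 and 1 as higher, with medians of -0.74 and -0.97 (4 lower and 1 higher in *D/F* with the mouse as a block). *Ms4a2*, the β chain of the high-affinity IgE receptor of mast cells and basophils, passed in both genotypes (log2 fold changes of -2.66 and -1.81). The summed markers of mast cells and basophils went from 106 to 199 TPM with DMSO to 21.0 to 50.3 TPM with CCS1477 in *D/F* and from 50.8 to 90.2 TPM to 23.2 to 42.4 TPM in *T/F*, and their part in the fall of *Ms4a2* was not tested.

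Downstream, the lists held log2 fold changes on both sides of 0, and those of ITAM and ITIM signaling lay mostly below it. Of the adaptors, kinases and ubiquitin ligases of the Toll-like receptors, 3 of 26 passed as lower and 1 as higher in *D/F*, and 6 of 25 as lower and 7 as higher in *T/F*, with medians of 0.14 and 0.05. With the mouse as a block these were 6 lower and 6 higher in *D/F*. *Pik3ap1*, an adaptor that links receptors to PI3K, and *Irak3*, an inhibitor of the pathway, fell in both, with log2 fold changes of -1.65 and -1.34 for *Pik3ap1* and of -0.89 and -0.78 for *Irak3*. Of 23 genes of ITAM and ITIM signaling, 5 passed as lower and 0 as higher in *D/F* cells, against 9 and 1 in *T/F* cells, with medians of -0.53 and -0.19, and 12 were lower in *D/F* with the mouse as a block. The Src family kinase *Fgr* (log2 fold changes of -2.26 and -2.04) and the adaptor *Lat2* (-2.75 and -1.97) led them, while *Syk*, the kinase that ITAMs recruit, had log2 fold changes of -0.56 and 0.11 and passed only in *D/F* with the mouse as a block (limma adjusted p = 0.0253).

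Of 22 inflammasome genes other than *Nlrp3*, 5 passed as lower and 1 as higher in *D/F* cells, against 7 and 7 in *T/F* cells, with medians of -0.23 and -0.05 (9 lower and 2 higher in *D/F* with the mouse as a block). *Mefv* (pyrin, log2 fold changes of -2.35 and -1.87) and *Nlrp1b* (-2.06 and -1.68), other inflammasome sensors, fell with *Nlrp3*. *Nek7*, a kinase that binds NLRP3, rose from 35.3 ± 0.767 to 60.2 ± 1.43 TPM in *D/F* (SD, n = 3, limma adjusted p = 0.0207) and from 36.3 ± 1.87 to 61.2 ± 1.03 TPM in *T/F* (limma adjusted p = 0.000821). Among 20 genes commonly induced by Toll-like receptors, 2 passed as lower and 0 as higher in *D/F* cells, against 4 and 1 in *T/F* cells, with medians of -0.22 and -0.55. Paired by mouse, 7 were lower and 2 higher in *D/F* cells, against 12 and 2 in *T/F* cells. The unpaired and the paired counts each have their own share of all genes, given above, and they describe the lists without a test of them.

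**Figure D4:**
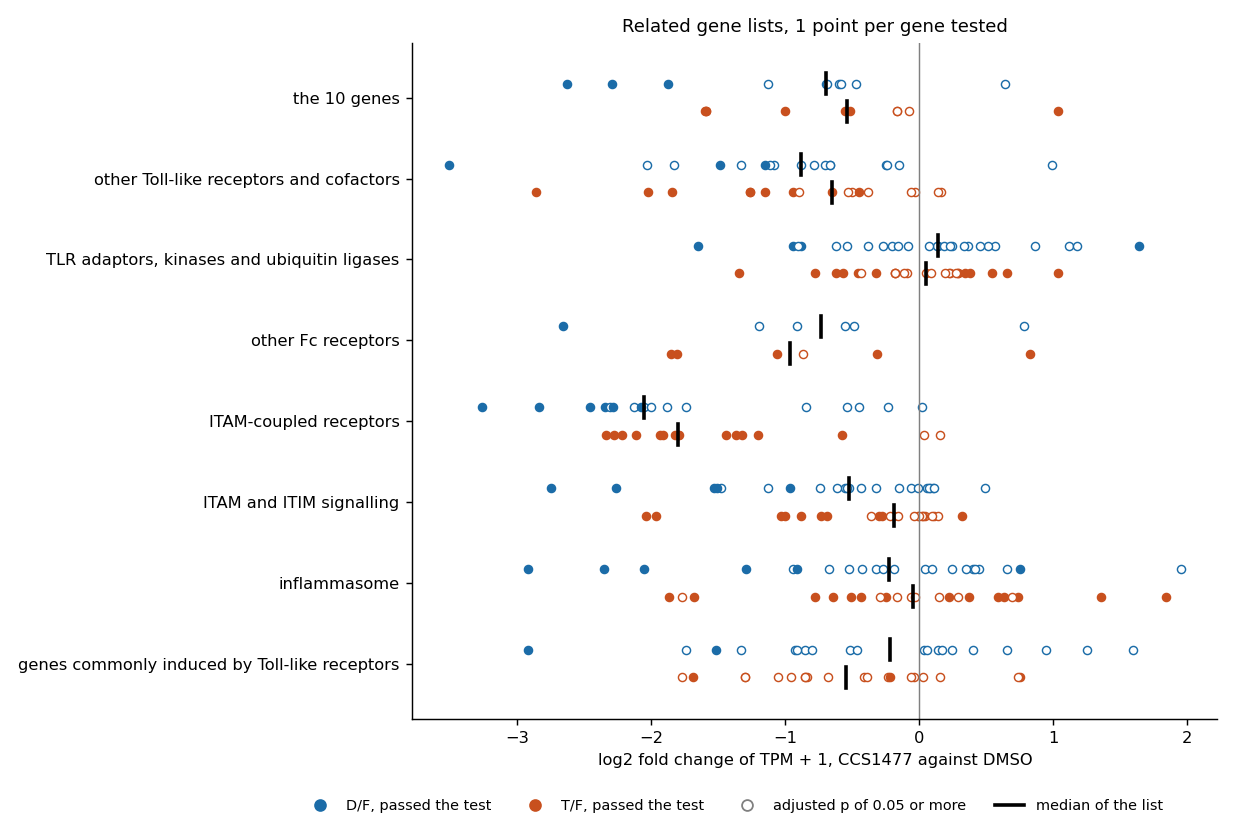
Log2 fold change of TPM + 1 with CCS1477 against DMSO (x axis) for each gene tested in the 10 genes and in 7 related lists (y axis), in *D/F* (blue) and *T/F* (orange). Filled points passed limma at an adjusted p under 0.05 and black bars are medians of a list; the ITAM-coupled receptors lie farthest below 0, with medians of -2.06 and -1.80, and the lists of downstream signaling genes lie on both sides of 0.

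Most cell type markers that passed as lower with CCS1477 were those of monocytes and macrophages, progenitors and blasts, or mast cells and basophils. Without the block, the lymphoid markers that passed were *Nkg7* in both genotypes and *Ighm*, *Cd79b* and *Pax5* in *T/F*. The counts below stand against 6.51% of all genes passing as lower for *D/F* cells and 17.6% for *T/F* cells. With the mouse as a block these shares were 18.0% and 22.9%. The summed monocyte and macrophage markers went from 692 to 1530 TPM with DMSO to 216 to 653 TPM with CCS1477 in *D/F*, and from 878 to 1098 TPM to 318 to 408 TPM in *T/F*, with 6 and 10 of 13 markers passing as lower. Of the progenitor and blast markers, 3 and 8 of 11 passed as lower (10 and 10 with the mouse as a block), and their sums with CCS1477 were 1018 to 4487 TPM in *D/F* and 1942 to 3275 TPM in *T/F*. The mature neutrophil sums overlapped between treatments, at 1672 to 9384 TPM and 2532 to 6952 TPM with CCS1477, and 2 of 10 markers passed as lower in each genotype (5 and 6 with the mouse as a block). Of mast cell and basophil markers 3 and 4 of 6 passed as lower (5 in each genotype with the mouse as a block), and of dendritic cell markers 1 of 7 in each genotype (2 and 6 with the mouse as a block), and of erythroid markers 0 of 5 and 0 of 7 passed (1 of 5 and 4 of 7 with the mouse as a block). The 3 to 4 B cell markers tested gave 0 lower in *D/F*, and 2 lower and 1 higher in *T/F* (1 lower in each with the mouse as a block). Of the T and NK cell list 1 gene passed as lower in each genotype (2 in *D/F* with the mouse as a block), *Nkg7*, which was named after its values were seen. The sums of this list went from 114 to 167 TPM to 17.2 to 33.5 TPM in *D/F*. In *T/F* they went from 73.4 to 107 TPM to 21.1 to 31.4 TPM. The B cell sums overlapped between treatments in *D/F*, and in *T/F* they went from 51.2 to 60.9 TPM to 106 to 134 TPM. Of the 4 B cell markers tested in *T/F*, only *Ighm* had a log2 fold change above 0 (1.46). *Cd79b* (-0.41) and *Pax5* (-0.68) passed as lower, and *Ebf1* was at -0.07, so the higher sum was that of *Ighm* alone. The part of cell composition in the changes of the 10 genes was not tested.

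The genotypes were compared within each treatment. With DMSO, 0 of the 10 genes passed limma, against 0.0328% of 15265 genes, and 4 had an unadjusted p under 0.05 (6.15% of all genes), all of them higher in *T/F*. These were *Tlr2*, *Nlrp3*, *Myd88* and *Tyrobp*, and they were also the members whose groups did not overlap, against 12.6% of all genes. The log2 difference of *Tlr2* was 1.01 ± 0.23 (SE, limma adjusted p = 0.472), and that of *Tyrobp* was 0.73 ± 0.13 (SE, limma adjusted p = 0.352). *Nlrp3* had a log2 difference of 0.95 (95% confidence interval 0.21 to 1.70) and *Myd88* one of 0.76 (0.05 to 1.46). *Tlr4* (0.03), *Ly96* (0.00), *Fcgr3* (-0.20) and *Fcgr2b* (-0.15) had overlapping groups. Monocyte and macrophage markers lay the same way with DMSO, 12 of 13 with a log2 difference above 0 and a median of 0.68 against -0.04 over all genes, and 0 passed limma. With CCS1477, 9 of 12 were above 0, with a median of 0.53, and their part in the genotype differences was not tested. With CCS1477 all 10 log2 differences were above 0, from 0.40 for *Ly96* to 1.30 for *Tyrobp*, in *T/F* cells at 2 µM and *D/F* cells at 4 µM. Of all 15199 genes, 6697 were above 0. Again 0 of the 10 passed limma, against 0.0329% of 15199 genes, while 7 had an unadjusted p under 0.05 (10.8% of all genes) and 5 did not overlap (*Tlr2*, *Myd88*, *Fcgr2b*, *Fcer1g* and *Tyrobp*), against 20.3% of all genes. The difference between the responses themselves passed limma for 0 of the 10 genes, with 1 at an unadjusted p under 0.05. With the mouse as a block 0 passed and 3 (*Tlr4*, *Fcgr2b* and *Fcgr3*) were under 0.05 unadjusted, against 14.7% of all genes. Of the 10 estimates 8 were above 0, against 8288 of 15583 over all genes in the fit without the block.

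**Figure D5:**
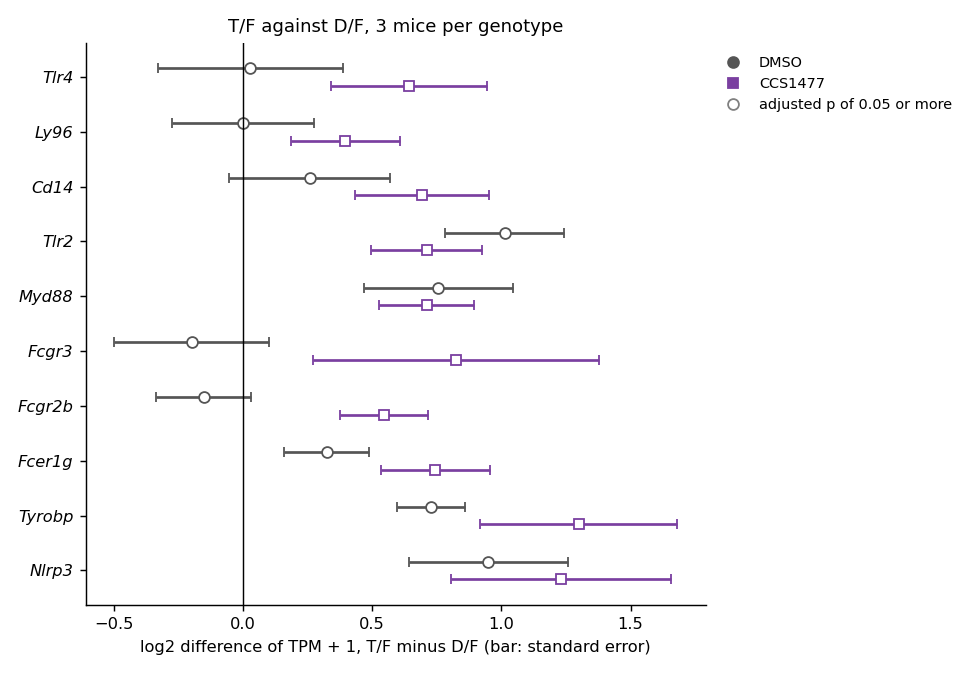
Log2 difference of TPM + 1, *T/F* minus *D/F* (x axis), for each gene (y axis) with DMSO (circles) and with CCS1477 (squares, 2 µM in *T/F* and 4 µM in *D/F*), with bars of 1 standard error and 3 mice per genotype. All symbols are open because none passed limma at an adjusted p under 0.05; *Tlr2*, *Nlrp3*, *Myd88* and *Tyrobp* lie to the right of 0 with both treatments.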

How the data were processed

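The authors processed RNA-seq reads of c-Kit+ splenocytes with AltAnalyze 2.1.3 and kallisto on mm10, and deposited 1 TPM value per gene and library. The kallisto version, the annotation and the strand setting are not given in the sources used here, and the labels name both ribosomal depletion and an mRNA kit. TPM is relative to the library total and no spike-in is recorded. The 15651 genes reach 2.0 TPM in at least 1 library. Symbols and positions come from GENCODE vM21 (GRCm38) and promoters from RefSeq.

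Where a compared group averaged 1 TPM or more, the gene was tested with limma 3.58.1 (R 4.3.3, eBayes without trend, two-sided) on log2(TPM + 1), without pairing. The difference of responses was fitted over 4 groups. Fits were run on simulated data with planted changes larger than most member changes, in genes well above 1 TPM. This does not check small changes or weakly expressed genes. Same-numbered samples come from the same mouse per the labels. The correlations of their deviations from group means were 0.539, 0.669 and 0.541 for the *D/F* mice. For the *T/F* mice they were 0.383, 0.354 and 0.496. The highest correlation among other pairs was 0.372. All *D/F* values lay above it, but *T/F* replicate 2 (0.354) lay below it and *T/F* replicate 1 (0.383) only just above. The correlations therefore do not establish the pairing in *T/F*, which rests on the labels. Replicates correlated at 0.945 to 0.991 and none were identical.

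The members and gene lists were chosen with earlier results of these data known. Named besides the members are, for each list, up to 2 rises and 2 falls with an adjusted p under 0.05 in both genotypes and at least 5 TPM, ranked by the smaller change, and the 3 genes most correlated with each member of at least 5 TPM, of which 1 is not reported here. Other list genes (*Hcst*, *Pirb*, *Pilra*, *Syk*) were named after their values were seen. So were single marker genes (*Nkg7*, *Ighm*, *Cd79b*, *Pax5*, *Ebf1*, *S100a8*, *Ngp*, *Ly6g*, *Cxcr2*). Alternatives tried were another pseudocount (0.1), another filter (5 TPM, or none), 2 rescalings, a trended robust fit, pairing by mouse, a joint fit of the 4 groups and leaving out each mouse.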

Additional observations from a re-analysis of the deposited data

How the results depend on the processing

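Of the counts of members that passed in *D/F*, 3 lower became 1 with a pseudocount of 0.1, and 6 in the shared fit of 4 groups. With the mouse as a block (pairing the samples) it was 6 lower and 1 higher, and the block changed no call of a member other than those given in the report. Leaving out each mouse gave 0 to 4 lower and 0 to 1 higher in *D/F*, and 3 to 6 lower in *T/F*. The 0 in *D/F*, seen when replicate 1 or 3 was left out, came from fits in which 0 genes passed of all tested. The cause of the other changes was not tested. Over both genotypes 5 to 7 members passed as lower and 1 as higher in every setting run. The difference of responses and the genotype comparisons gave 0 in every setting run.

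Leaving out 1 mouse turned the direction of a few log2 values that had not passed. Their ranges were -0.34 to 0.10 for *Cd14* in *T/F* and -0.16 to 0.0801 for *Myd88* in the difference of responses. In the genotype comparison with DMSO they were -0.0036 to 0.56 for *Cd14*, -0.31 to 0.0040 for *Fcgr2b*, -0.36 to 0.0835 for *Fcgr3*, -0.22 to 0.29 for *Ly96* and -0.31 to 0.36 for *Tlr4*. All other member values kept their direction in every setting run. Over all genes, 1805 passed in *D/F*, 6098 with the mouse as a block, 4940 in the shared fit, 2852 after quantile normalization and 3739 without replicate 2. In *T/F* 6620 passed, 3713 in the shared fit and 3192 to 5122 with a mouse left out. With DMSO the genotypes differed in 5 genes, 20 in the shared fit and 4 to 9 with a mouse left out. With CCS1477 these counts were 5, 71 in the shared fit, 10 with the trended robust fit and 2 to 27 with a mouse left out. TPM keeps no depth, so values near 1 TPM are the least certain, among them *Cd14* and, in *D/F* cells with CCS1477, *Nlrp3* (1.32 to 5.06 TPM).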
